A study of Homo sapiens with 6 samples.

Results

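Transport of amino acids across the plasma membrane was followed through 10 genes, SLC7A11, SLC3A2, SLC7A5, SLC7A1, SLC1A4, SLC1A5, SLC38A1, SLC38A2, SLC6A9 and SLC43A1, in a melanoma line treated with CuB. They are a list of gene symbols, drawn up with earlier results of these data known, and are 10 of the 58735 genes in the expression table. The cells were A375, an established line of human melanoma cells that carries an activating mutation of BRAF. The study compared 2 groups of A375 cells, one given the solvent DMSO and the other CuB, each for 6 h and each with 3 libraries of polyadenylated RNA. CuB is cucurbitacin B by the title of the series, and its dose is uncertain, because the protocol gives 0.2 µM and the library names give 100 nM. All libraries come from this 1 line in culture. Whether replicates came from separate cultures is not stated in the labels. Each p-value therefore measures only the spread between these libraries, which may be technical.

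Amino acids cross the plasma membrane through carriers of the solute carrier (SLC) families. Some carriers exchange one amino acid for another, and others draw amino acids in with sodium or with the membrane voltage. SLC7A11 and SLC7A5 are light chains that reach the cell surface bound to the same glycoprotein, 4F2hc, the product of SLC3A2. With SLC7A11 this pair forms system xc-, which takes up cystine in exchange for glutamate and feeds glutathione synthesis. With SLC7A5 (LAT1) it forms a system L exchanger for leucine and other large neutral amino acids, which supplies mTORC1 signalling. When amino acids are short or proteins misfold, eIF2α is phosphorylated and the transcription factor ATF4 is translated, and many carrier genes are known ATF4 targets.

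All 10 transporter genes were higher with CuB. The mean rose from 1.64-fold in SLC43A1 to 7.36-fold in SLC3A2. The values are FPKM, fragments divided by the length of the gene and by a library size, and each gene was tested as log2(FPKM + 1) with limma at an adjusted p of 0.05 over the 13273 genes that averaged at least 1 FPKM. All 10 members passed this filter, and 10 of 10 were called higher and 0 lower. Among all tested genes 22.9% were called higher and 15.6% lower. A rise of at least 2-fold on the log2(FPKM + 1) scale was called in 7 of the 10, against 4.87% of all tested genes. In all 10 the 3 CuB values lay above the 3 DMSO values, as they did in 29.8% of all tested genes. The median log2 difference was 1.73 over the 10 transporters and 0.05 over all tested genes. In RNA from a whole culture, a change in the mix of cells and a change in the RNA of each cell cannot be told apart.

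Summed over the 10 genes, the level was 308.5, 327.8 and 310.2 FPKM in the DMSO libraries and 1139.8, 1213.8 and 1223.6 FPKM in the CuB libraries. Their fragments made up 0.199% of all fragments with DMSO and 0.62% with CuB.

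**Figure D1:**
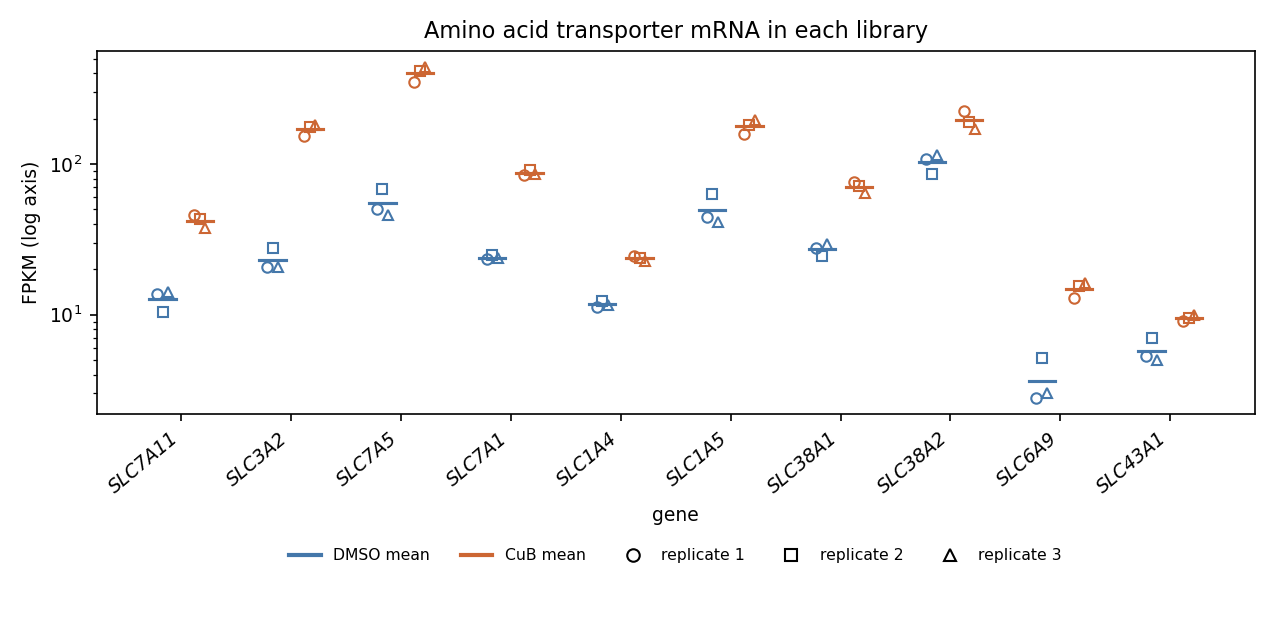
FPKM of each transporter gene (log axis) in the 3 DMSO and 3 CuB libraries, with symbols for replicates and lines for group means. In each gene all 3 CuB values lie above all 3 DMSO values, from SLC43A1 at 1.64-fold to SLC3A2 at 7.36-fold.

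The promoters of the transporter genes were read for 3 motifs of factors known to act on such genes. These were TGATGNAA, the C/EBP-ATF response element to which ATF4 binds with a C/EBP partner, TGACNNNGC, the core of the antioxidant response element of NRF2, and CACGTG, the E-box of MYC and related factors. RefSeq promoter windows of GRCh38.p14, from 250 bases before to 50 bases after a start site, were matched for 9 of the 10 genes, with 16 windows in all. SLC7A11 was not matched. Both strands were searched, and 0 matches overlapped a match of another motif. TGATGNAA was found for 5 of the 9 genes (SLC3A2, SLC7A1, SLC1A4, SLC1A5 and SLC38A1) in 5 of the 16 windows, and in 3.62% of all 35116 windows. The 16 windows of these 9 genes include several start sites for some genes, and 4.46% of all 27305 genes held the motif in a window. TGACNNNGC was found for 4 genes (SLC3A2, SLC7A5, SLC7A1 and SLC1A5) in 4 windows, and in 13.3% of all windows. CACGTG was found for 3 genes (SLC7A5, SLC1A5 and SLC43A1) in 3 windows, and in 7.26% of all windows. A match is a description of the letters, and binding was not measured.

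The 5 windows with TGATGNAA are shown around the match, because this motif was the rarest of the 3 over all windows. Each is written on the strand of its gene, 5′ to 3′, with the match in capitals. A match on the other strand appears as its reverse complement, as in SLC1A4 (TGATGCAA) and SLC3A2 (TGATGTAA). Positions are counted from the start site, whose base is 1 and follows -1. SLC1A4 is shown at chr2:64989352-64989423 on the plus strand (match at -7 to 1) and SLC3A2 at chr11:62881719-62881748 on the plus strand (38 to 45). SLC38A1 is shown at chr12:46266492-46266560 on the minus strand (-4 to 4), SLC7A1 at chr13:29595664-29595721 on the minus strand (8 to 15) and SLC1A5 at chr19:46784864-46784951 on the minus strand (-97 to -90).
SLC1A4: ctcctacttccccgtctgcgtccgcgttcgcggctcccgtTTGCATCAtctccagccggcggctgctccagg
SLC3A2: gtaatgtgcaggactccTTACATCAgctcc
SLC38A1: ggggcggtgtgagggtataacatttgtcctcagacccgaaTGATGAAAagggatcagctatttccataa
SLC7A1: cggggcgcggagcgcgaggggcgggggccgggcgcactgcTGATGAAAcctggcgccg
SLC1A5: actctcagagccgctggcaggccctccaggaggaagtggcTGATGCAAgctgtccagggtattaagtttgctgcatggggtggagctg

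For the heavy chain SLC3A2 and its light chain SLC7A5, the genes with the largest rises, the TGACNNNGC matches are shown in the same way. SLC3A2 is shown at chr11:62881622-62881710 (match at -37 to -29) and SLC7A5 at chr16:87869483-87869549 on the minus strand (-2 to 7).
SLC3A2: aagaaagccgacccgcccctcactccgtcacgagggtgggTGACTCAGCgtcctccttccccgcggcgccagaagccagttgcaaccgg
SLC7A5: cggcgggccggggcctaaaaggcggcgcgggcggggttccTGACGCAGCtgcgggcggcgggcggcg

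The heavy chain and the large neutral amino acid exchanger had the largest rises of the 10. SLC3A2 (ENSG00000168003) was at 20.7, 27.7 and 20.8 FPKM in DMSO replicates 1 to 3 and at 152.9, 176.3 and 180.4 FPKM in CuB replicates 1 to 3. The groups were far apart, and the lowest CuB value was 5.51 times the highest DMSO value. The mean rose from 23.1 ± 4.03 to 169.9 ± 14.9 FPKM (SD over 3 libraries in each group, as in all values below), and limma gave a log2 difference of 2.84 (SE 0.131, 95% interval 2.53 to 3.15, adjusted p = 1.67e-05). SLC7A5 (ENSG00000103257) was at 50.5, 67.8 and 45.9 FPKM with DMSO and at 350.9, 412.0 and 438.8 FPKM with CuB. DMSO replicate 2 was the highest of its group and CuB replicate 1 the lowest of its group, and the groups did not overlap. This was a rise from 54.7 ± 11.5 to 400.6 ± 45.02 FPKM, 7.32-fold, at a log2 difference of 2.86 (SE 0.156, limma adjusted p = 3.26e-05). With CuB it was the most abundant mRNA per length of the 10.

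SLC7A11 (ENSG00000151012), the cystine carrier of system xc-, was at 13.8, 10.4 and 14.2 FPKM with DMSO and at 45.8, 42.9 and 37.8 FPKM with CuB. Here DMSO replicate 2 was the lowest of its group and CuB replicate 1 the highest of its group, the reverse of the pattern in SLC7A5. The mean rose 3.30-fold, from 12.8 ± 2.09 to 42.1 ± 4.05 FPKM, with a log2 difference of 1.65 (SE 0.135, 95% interval 1.34 to 1.97, limma adjusted p = 0.000182).

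The heavy chain SLC3A2 and the light chain SLC7A5 rose in nearly the same proportion, at 7.36-fold and 7.32-fold. The light chain SLC7A11 rose less, at 3.30-fold. A set of 6 light chains is known to pair with 4F2hc, and of these SLC7A5, SLC7A11 and SLC7A6 (y+LAT2) were above the filter, while SLC7A7, SLC7A8 and SLC7A10 averaged at most 0.164 FPKM in either group. SLC7A11 made up 20.1, 12.5 and 21.9% of the summed light chain FPKM with DMSO and 11.4, 9.30 and 7.83% with CuB. Its share was lower in all 3 CuB libraries, at 18.1 ± 4.99% against 9.52 ± 1.81%, a difference of -8.62 percentage points (exact two-sided permutation p = 0.1, the smallest that 3 against 3 can give, so the design cannot reach 0.05). The share of SLC7A5 was 73.5, 81.4 and 70.8% with DMSO and 87.6, 89.4 and 91.0% with CuB. SLC7A6 was at 4.43 ± 0.323 and 4.90 ± 1.06 FPKM and did not pass the test (log2 difference 0.11, limma adjusted p = 0.599). SLC3A2 FPKM divided by the summed light chain FPKM was 0.302, 0.333 and 0.321 with DMSO and 0.382, 0.383 and 0.374 with CuB. This ratio to the sum was higher in every CuB library and was not tested.

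**Figure D2:**
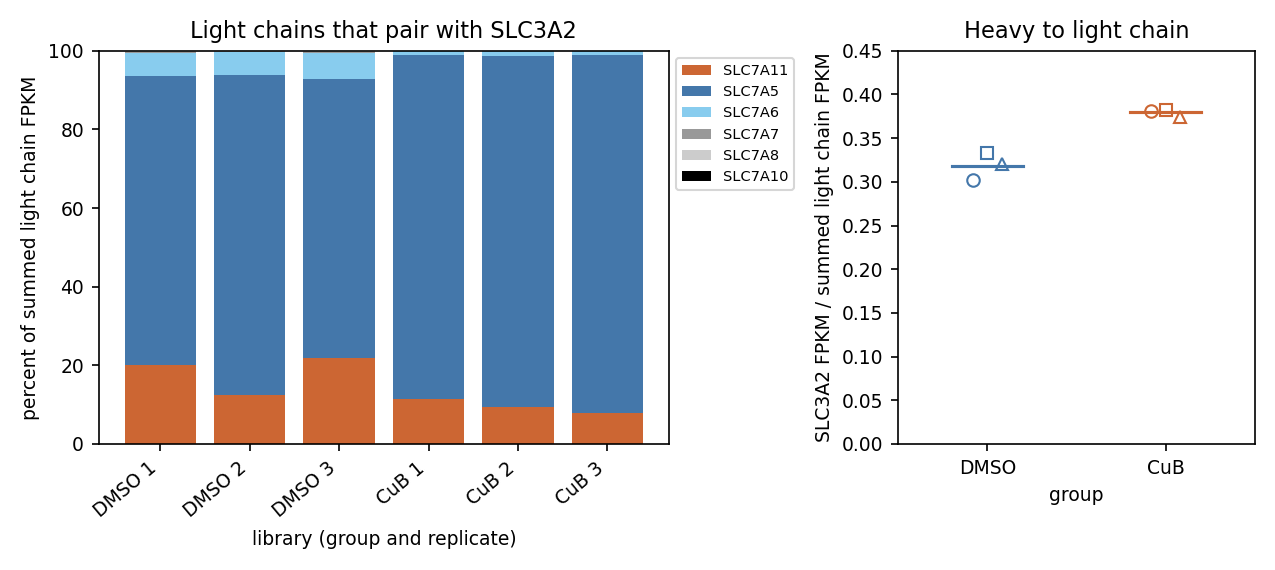
Left, the percent of the summed FPKM of the 6 SLC3A2 light chains that each light chain takes in each library. Right, SLC3A2 FPKM divided by that sum, with points for libraries and lines for group means; the SLC7A11 share runs from 12.5 to 21.9% with DMSO and from 7.83 to 11.4% with CuB.

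SLC43A1 (ENSG00000149150) encodes LAT3, a facilitative carrier of leucine and related amino acids that needs no heavy chain. It was at 5.29, 7.04 and 4.99 FPKM with DMSO and at 9.07, 9.48 and 9.92 FPKM with CuB. The CuB values lay close together just above the highest DMSO value, which was that of replicate 2. Its rise of 1.64-fold was the smallest of the 10 (log2 difference 0.64, SE 0.125, 95% interval 0.35 to 0.94, limma adjusted p = 0.00718), and it did not pass when all 58735 genes were tested without the filter (adjusted p = 0.0629). SLC7A5 was at 9.45 times the FPKM of SLC43A1 with DMSO and at 42.1 times with CuB, as geometric means.

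SLC7A1 (ENSG00000139514) encodes CAT-1, the main carrier of arginine and lysine in many cells. It was at 23.4, 24.8 and 23.6 FPKM with DMSO and at 84.3, 91.3 and 85.7 FPKM with CuB. Replicates were close together in both groups, and the groups were widely separated. The mean rose 3.64-fold, from 23.9 ± 0.733 to 87.1 ± 3.67 FPKM, and its adjusted p was the lowest of the 10 (log2 difference 1.82, SE 0.0715, limma adjusted p = 8.24e-06).

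The neutral amino acid exchangers of the SLC1 family both rose. SLC1A5 (ENSG00000105281), which encodes the glutamine exchanger ASCT2, was at 44.5, 62.8 and 41.1 FPKM with DMSO and at 158.2, 182.2 and 195.5 FPKM with CuB. DMSO replicate 2 stood above the other DMSO libraries and CuB replicate 1 below the other CuB libraries, as in SLC7A5. The mean rose 3.61-fold (log2 difference 1.85, SE 0.166, limma adjusted p = 0.00028). SLC1A4 (ENSG00000115902), which encodes ASCT1, a carrier of serine, alanine and cysteine, was at 11.3, 12.4 and 11.5 FPKM with DMSO and at 24.3, 23.7 and 22.9 FPKM with CuB. The values within each group were nearly level, and the groups did not overlap. Its mean rose 2.01-fold, while the log2 difference, which the pseudocount of 1 FPKM makes smaller, was 0.95 (SE 0.0765, limma adjusted p = 0.000173).

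The system A carriers SLC38A1 (SNAT1) and SLC38A2 (SNAT2) take up glutamine, alanine and other small neutral amino acids with sodium. SLC38A1 (ENSG00000111371) was at 27.8, 24.4 and 29.7 FPKM with DMSO and at 76.1, 71.0 and 64.4 FPKM with CuB. The CuB values were all well above the DMSO values, and the mean rose 2.58-fold (log2 difference 1.34, SE 0.102, limma adjusted p = 0.000142). SLC38A2 (ENSG00000134294), which is known to be induced when amino acids are short, was at 108.4, 85.5 and 115.4 FPKM with DMSO and at 225.3, 189.4 and 172.1 FPKM with CuB. DMSO replicate 2 was the lowest DMSO library and CuB replicate 1 the highest CuB library, as in SLC7A11. The mean rose 1.90-fold (log2 difference 0.92, SE 0.143, 95% interval 0.58 to 1.26, limma adjusted p = 0.00285).

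SLC6A9 (ENSG00000196517) encodes GLYT1, a glycine carrier driven by sodium and chloride. It was at 2.80, 5.14 and 3.02 FPKM with DMSO, from 222, 434 and 243 fragments, and at 12.9, 15.6 and 16.2 FPKM with CuB, from 943, 1196 and 1247 fragments. With DMSO it was the least abundant of the 10, and replicate 2 was well above the other DMSO libraries. The mean rose 4.07-fold (log2 difference 1.80, SE 0.193, limma adjusted p = 0.000592).

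The order of the levels differed between the groups. With DMSO, SLC38A2 was the most abundant at 103.1 ± 15.7 FPKM, above SLC7A5 and SLC1A5, whose ranges overlapped. SLC38A1, SLC7A1 and SLC3A2 followed, each with a range that overlapped the next, then SLC7A11 and SLC1A4, which overlapped, and last SLC43A1 and SLC6A9, which also overlapped. With CuB, SLC7A5 was first and overlapped no other gene, and SLC38A2, SLC1A5 and SLC3A2 came next with overlapping ranges. Below them SLC7A1, SLC38A1, SLC7A11, SLC1A4, SLC6A9 and SLC43A1 followed with no overlap between neighbours. SLC7A5 made up 17.3 ± 3.04% of the summed FPKM of the 10 genes with DMSO and 33.5 ± 2.56% with CuB, and SLC38A2 made up 32.8 ± 5.92% and 16.5 ± 2.95%.

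Ratios between carriers of related substrates do not depend on how the libraries were scaled. The ratio of SLC7A11 to SLC7A5 was 0.235 with DMSO and 0.105 with CuB, and its log2 value was lower by a difference of -1.16. SLC38A2 was at 3.76 times the level of SLC38A1 with DMSO and 2.76 times with CuB (log2 difference -0.44). The ratio of SLC1A4 to SLC1A5 was 0.241 with DMSO and 0.133 with CuB (log2 difference -0.86), and that of SLC7A5 to SLC43A1 had a log2 difference of 2.15. In each of these 4 pairs the 3 CuB ratios lay on one side of the 3 DMSO ratios, at the smallest exact two-sided permutation p of 0.1 (Benjamini-Hochberg adjusted p = 0.1 over the 4 pairs). The more abundant gene of the DMSO pair gained more in 3 pairs, and SLC38A2 over SLC38A1 was the exception.

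The replicates of the 10 genes differed along base composition. DMSO replicate 2 minus the mean of the other DMSO libraries correlated with transcript GC content at r = 0.973 across the 10 genes (Spearman's rho 0.927), and at r = 0.723 across all tested genes. SLC7A11, the gene lowest in GC at 35.9%, was low in that library, and SLC6A9, the highest at 60.7%, was high. CuB replicate 1 minus the other CuB libraries correlated at r = -0.927 across the 10 genes (rho -0.952) and at -0.54 across all tested genes. The log2 difference between CuB and DMSO correlated with GC content at r = 0.366 across the 10 genes and 0.0510 across all tested genes. These are correlations across genes that share the same libraries. With a curve on GC content removed from each library, all 10 genes were called higher, at log2 differences from 0.57 to 2.79. The spread of the SLC7A11 to SLC7A5 ratio (SD of log2) was 0.54 in the DMSO libraries as deposited and 0.0844 after that correction. After it, the difference between the groups was -1.13. The corrected ratio was taken from log2(FPKM + 1) values and the deposited ratio from FPKM without a pseudocount, so the 2 measures differ.

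**Figure D3:**
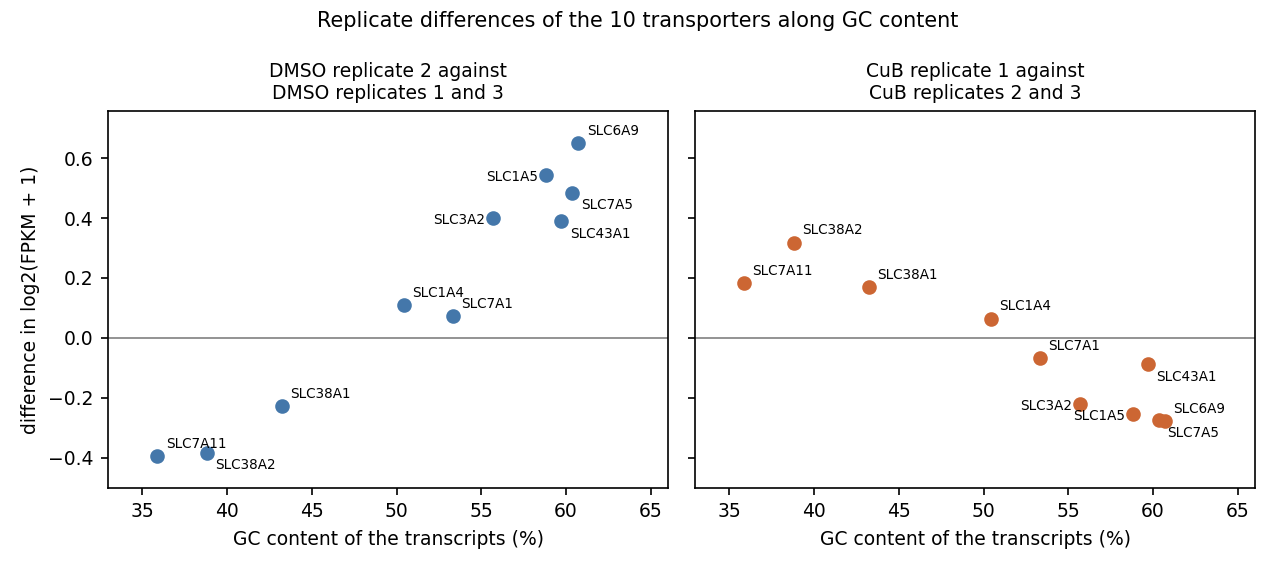
Difference in log2(FPKM + 1) between 1 replicate and the other replicates of its group, for each transporter against the GC content of its transcripts (percent). Genes of high GC lie high in DMSO replicate 2 (r = 0.973) and low in CuB replicate 1 (r = -0.927).

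Of 28 carriers of the plasma membrane outside the 10, 22 averaged less than 1 FPKM and 6 were tested. Of these 6, 0 were called higher, 3 lower and 3 did not pass, with a median log2 difference of -0.34. Over all tested genes 22.9% were called higher and 15.6% lower. The 10 and these 28 were divided with earlier results of these data known, so the contrast between them is not an independent test. Tested without the filter, 1 of the 28 was called higher and 2 lower. The gene called higher there was SLC43A2, which encodes LAT4, a relative of SLC43A1, and it was named after its values were seen. It was at 0.319, 0.432 and 0.284 FPKM with DMSO and at 0.818, 1.07 and 0.952 FPKM with CuB, with no overlap (log2 difference 0.53, limma adjusted p = 0.0408 without the filter). SLC1A1, the glutamate and cysteine carrier EAAT3, was at 18.7, 16.6 and 18.9 FPKM with DMSO and at 4.57, 3.75 and 3.61 FPKM with CuB. Every CuB value was far below the DMSO values, a fall by 1.94 on the log2 scale (SE 0.105, limma adjusted p = 3.17e-05). SLC7A2, a cationic amino acid carrier related to SLC7A1, fell from 4.58 ± 0.516 to 2.96 ± 0.201 FPKM (limma adjusted p = 0.00974). The taurine carrier SLC6A6 fell from 15.7 ± 0.331 to 11.6 ± 1.15 FPKM (limma adjusted p = 0.0127), and this call was lost without DMSO replicate 1 (0.0538) or without the filter (0.0537). Among 364 protein-coding SLC genes outside the 10, a set from which the 28 were not removed, 173 were tested. Of the 173, 33 (19.1%) were called higher and 38 (22.0%) lower, with a median log2 difference of -0.01. Rises of at least 2-fold were called in 7 of the 173. With equal fragment totals 25 of the 173 were called higher and 52 lower, and with the GC correction 45 and 61. In both of these settings 5 of the 6 other plasma membrane carriers were called lower and 0 higher.

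Carriers of the lysosomal membrane were tested in 7 of 8 cases and limma called 0 of them in either direction. At an unadjusted p under 0.05 there were 0, and the median log2 difference was 0.10. Over all tested genes 22.9% were called higher and 15.6% lower. PQLC2, an exporter of cationic amino acids, was at 7.57 ± 1.67 and 8.05 ± 1.01 FPKM. CTNS, the cystine exporter cystinosin, was at 5.78 ± 0.523 and 6.14 ± 0.545 FPKM.

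Genes that use cystine or make glutathione were called higher in 4 of 8 tested cases, with 0 lower and 4 not passed. Their median log2 difference was 0.60. Over all tested genes 22.9% were called higher and 15.6% lower. CHAC1, which degrades glutathione, rose from 2.10 ± 0.706 to 52.1 ± 5.59 FPKM (limma adjusted p = 1.00e-05). CTH, which makes cysteine from cystathionine, rose from 2.77 ± 0.183 to 34.2 ± 4.37 FPKM (limma adjusted p = 5.45e-06). GCLM, the modifier subunit of the enzyme that starts glutathione synthesis, rose from 6.55 ± 1.10 to 15.7 ± 2.32 FPKM (limma adjusted p = 0.00128). Its catalytic partner GCLC, the glutathione synthetase GSS, the reductase GSR and the peroxidase GPX4 did not pass. GSS passed as lower with equal fragment totals (limma adjusted p = 0.0161), the same FPKM sum (0.0303), quantile normalization (0.0149) and the GC correction (0.00164).

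Enzymes of amino acid synthesis were called higher in 10 of 13 cases (76.9%) and lower in 2 (15.4%), with a median log2 difference of 1.23. Over all tested genes the shares were 22.9% and 15.6%, so the share called lower was near that of all genes. PSAT1, of serine synthesis, rose from 73.5 ± 6.91 to 246.4 ± 36.0 FPKM (limma adjusted p = 0.000105). GPT2, which makes alanine, rose from 10.8 ± 1.12 to 37.3 ± 2.62 FPKM, and asparagine synthetase ASNS from 0.430 ± 0.0923 to 3.58 ± 0.328 FPKM. SHMT1 and ALDH18A1 were the members called lower, and ALDH18A1 (log2 difference -0.25, limma adjusted p = 0.0233) did not pass without DMSO replicate 1 (0.107), DMSO replicate 3 (0.0667) or CuB replicate 1 (0.0613), 2 (0.0972) or 3 (0.0611). Glutamine synthetase GLUL was at 4.98 ± 0.225 and 4.01 ± 0.387 FPKM and did not pass (adjusted p = 0.0663), but passed as lower with equal fragment totals (0.0165), the same FPKM sum (0.0308), quantile normalization (0.0411), limma-voom (0.0499) and the GC correction (0.0142).

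Genes of amino acid sensing upstream of mTORC1 went both ways, with a median log2 difference of 0.04. Of 12 tested genes 3 (25%) were called higher, 4 (33.3%) lower and 5 did not pass. The shares over all tested genes were 22.9% higher and 15.6% lower, so the share called higher was near that of all genes. Without CuB replicate 2, 2 were called higher and 2 lower. SESN2, a leucine sensor that holds mTORC1 back, rose from 5.88 ± 0.802 to 83.2 ± 6.66 FPKM (limma adjusted p = 3.82e-06). CASTOR2, which is related to the arginine sensor CASTOR1, fell from 3.15 ± 0.867 to 1.25 ± 0.0593 FPKM (limma adjusted p = 0.00735), and did not pass without the filter (0.0699). The GTPase gene RRAGD fell from 3.96 ± 0.458 to 1.79 ± 0.321 FPKM (limma adjusted p = 0.00236).

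Transcription regulators known to act on these carrier genes were called higher in 9 of 11 cases (81.8%) and lower in 2 (18.2%). Their median log2 difference was 1.19. Over all tested genes the shares were 22.9% and 15.6%, so the share called lower was near that of all genes. The largest rises were in ATF3, from 0.645 ± 0.0980 to 71.1 ± 5.37 FPKM, in DDIT3, which encodes CHOP (log2 difference 3.71), and in TRIB3, from 16.8 ± 2.59 to 159.6 ± 4.42 FPKM. The factors of the 3 promoter motifs were named after their values were seen. ATF4 rose from 99.3 ± 6.77 to 216.5 ± 3.01 FPKM, and its C/EBP partners CEBPB and CEBPG had log2 differences of 1.99 and 2.26. NFE2L2, which encodes NRF2, had a log2 difference of 1.04 (limma adjusted p = 0.00387) and did not pass without the filter (0.056). MYC, a known activator of SLC7A5 and SLC1A5, was at 10.2, 11.99 and 9.56 FPKM with DMSO and at 3.90, 4.30 and 4.23 FPKM with CuB. Its CuB values all lay below its DMSO values (log2 difference -1.17, limma adjusted p = 0.000244). What part any of these factors has in the transporter levels was not tested.

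Of 5 proteins known to set how much carrier stays at the surface or to bind it there, 2 were called higher, 1 lower and 2 did not pass. All tested genes had 22.9% called higher and 15.6% lower, and a list of 5 genes is too short to be set apart from these shares. NEDD4L, a ubiquitin ligase, rose from 6.22 ± 0.481 to 14.1 ± 0.336 FPKM (limma adjusted p = 0.000152). CD44, which binds SLC7A11, rose from 65.98 ± 5.93 to 92.5 ± 6.95 FPKM (limma adjusted p = 0.00784), and it did not pass under quantile normalization (0.102) or without the filter (0.0605). LAPTM4B, which brings SLC7A5 to lysosomes, was at 83.7 ± 6.30 and 66.3 ± 4.62 FPKM (limma adjusted p = 0.0244). That call for LAPTM4B was lost without the filter (0.117) and without DMSO replicate 1 (0.102), DMSO replicate 3 (0.0758), CuB replicate 2 (0.104) or CuB replicate 3 (0.0748).

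**Figure D4:**
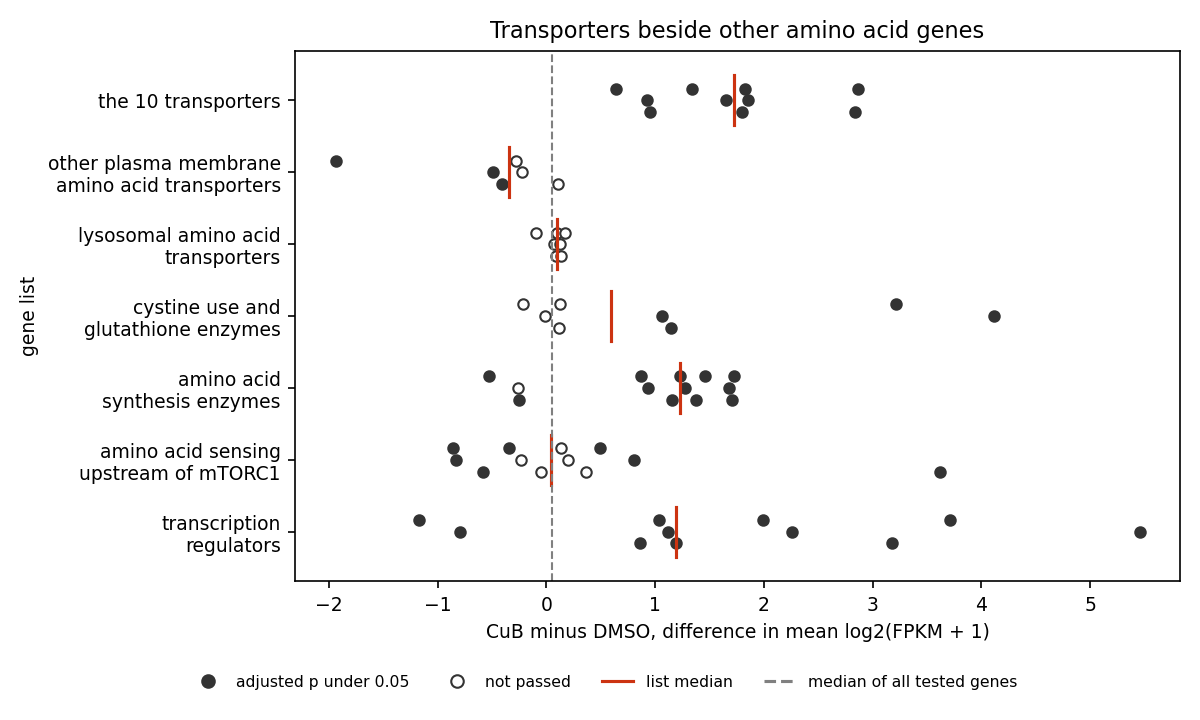
CuB minus DMSO difference in mean log2(FPKM + 1) for each tested gene of 7 lists, filled where the limma adjusted p was under 0.05, with list medians in red and the median of all tested genes dashed. The 10 transporters lie between 0.64 and 2.86, while the 6 tested carriers of the plasma membrane outside the 10 have a median of -0.34. All lists were drawn up with earlier results of these data known, so the contrast between them is not an independent test.

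SLC7A11 was compared with every other tested gene by the root mean square difference of their log2 profiles over the 6 libraries, each taken relative to its DMSO mean. The nearest genes were ARRDC3, an arrestin-domain adaptor (0.0525), RCAN1, a regulator of calcineurin (0.0595), and ZC3H12C, a zinc finger RNA-binding protein (0.0643). TES, a focal adhesion protein (0.0681), and NAMPT, which makes NAD from nicotinamide (0.0848), came next. The nearest of the other transporters were SLC7A1 at 0.214 and SLC38A1 at 0.231, and SLC7A5 was the farthest at 0.921. All 5 nearest genes are, like SLC7A11, lower in GC than SLC7A1, between 38.4 and 45.6%.

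On GRCh38, SLC7A11 lies on chromosome 4 from 138164097 to 138242349 and SLC7A5 on chromosome 16 from 87830023 to 87869488. SLC3A2 lies on chromosome 11 from 62856102 to 62888875, and SLC43A1 on the same chromosome from 57484534 to 57515786. SLC7A1 lies on chromosome 13 from 29509410 to 29595688 and SLC6A9 on chromosome 1 from 43991500 to 44031467. SLC1A4 lies on chromosome 2 from 64988477 to 65023865 and SLC1A5 on chromosome 19 from 46774883 to 46788594. SLC38A1 and SLC38A2 are neighbours on chromosome 12, from 46183063 to 46270017 and from 46358189 to 46372867. Strand is not marked by the library kit, and fragments from exons shared with a gene on the opposite strand cannot be assigned. This touches 23.8% of the exonic bases of SLC1A5, 8.97% of SLC7A11 (SLC7A11-AS1), 7.83% of SLC6A9 (CCDC24) and 5.71% of SLC7A5 (AC126696.2). CCDC24 was at 1.17 ± 0.212 and 1.01 ± 0.400 FPKM, and SLC7A11-AS1 and AC126696.2 averaged at most 1.06 FPKM in either group.

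Each library held between 14845976 and 16137093 fragments assigned to genes, and each pair of replicates differed by more than sampling noise, at a chi-square of at least 2.80 per degree of freedom. Of 7 melanocyte lineage markers, SOX10 was at 197.8 ± 50.4 and 217.9 ± 31.1 FPKM and MITF at 3.96 ± 0.467 and 4.42 ± 0.712 FPKM. S100B fell from 26.4 ± 1.61 to 6.64 ± 0.161 FPKM, and the pigment genes PMEL, MLANA, TYR and DCT each averaged under 1 FPKM in both groups. Of 8 markers of leukocytes, fibroblasts, endothelium and keratinocytes, 7 averaged at most 0.397 FPKM in either group. KRT14 was at 1.04 ± 0.263 and 2.14 ± 0.602 FPKM (limma adjusted p = 0.0337), and it did not pass without the filter (0.197), with the same FPKM sum (0.0503) or with equal fragment totals (0.0611). Nor did KRT14 pass without DMSO replicate 1 (0.0873), DMSO replicate 3 (0.0955), CuB replicate 2 (0.108) or CuB replicate 3 (0.103). The scaling of the libraries shifted all genes: of the calls, 59.5% were higher as deposited, 46.7% after rescaling to the same FPKM sum, 39.3% with equal fragment totals and 47.2% under quantile normalization. The equal totals moved the median log2 difference of all tested genes by -0.14 to -0.08. All 10 transporters were called higher under each of these scalings.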

How the data were processed

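FPKM values for 58735 genes were deposited by the authors in one table for 3 DMSO and 3 CuB libraries of A375 RNA, made with a TruSeq RNA kit per the labels' protocols. Per the submitters' processing notes the genome build was GRCh38. Not given in the sources used here were the aligner, the counter and the scaling. All gene coordinates were those of GENCODE 29, which gave GC content for 13265 tested genes. Columns were assigned by name, and 0 sample columns were left unused.

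FPKM values were whole multiples of 1 fragment in 100% of values above 0, within 0.01 of a fragment, which gave each library's depth. The library size implied by FPKM was 1.03 to 1.04 times the fragment total with DMSO and 0.914 to 0.927 times with CuB, so the deposited FPKM values were not scaled to fragment totals.

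Genes that averaged at least 1 FPKM were tested as log2(FPKM + 1) with limma 3.58.1 (trend, statmod 1.5.0, R 4.3.3), without a replicate block and with Benjamini-Hochberg adjustment over 13273 genes. A fold of means is on the FPKM scale, and log2 differences understate the change of low genes. Ratios and shares had exact two-sided permutation tests. The limma step was also run on simulated data, with far fewer changed genes than were called here and no GC effect between libraries. That run cannot give the error rate of the calls in these data. Alternatives were a pseudocount of 0.1 or 0.5, testing without the filter, a minimum of 5 FPKM, 4 other scalings, limma without trend or robust, limma-voom on the recovered fragments, the block, a GC correction (lowess span 0.3) and each library left out. Each fit with a library left out has 2 libraries in that group.

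Named genes were all 10 transporters and, for each other list, up to 3 called genes with the largest differences and no overlap between groups. Where none passed, the 2 with the highest mean were named. The 5 genes most like SLC7A11, outside the 10 and without clone, accession or LINC names, were also named. Others named (GCLC, GSS, GSR, GPX4, SHMT1, ALDH18A1, GLUL, MYC, ATF4, CEBPB, CEBPG, NFE2L2, SLC43A2, SLC7A6, the cell markers and the overlapping genes) were named outside that rule after their values were seen. The results of a few genes are left out of the text. The transporters and the lists were chosen with earlier results of these data known. Plots used Python 3.11.15 and matplotlib 3.10.9.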

Additional observations from a re-analysis of the deposited data

How the results depend on the processing

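The 10 transporters were called higher under every alternative run except testing without the filter, where 9 were called and SLC43A1, at the same log2 difference of 0.64, had a limma adjusted p of 0.0629. Over the 6 fits that each left out 1 library, all 10 were called higher, with a median log2 difference of 1.68 to 1.73 and a largest adjusted p of 0.0326. Deviations of same-numbered DMSO and CuB libraries correlated at 0.269, 0.118 and -0.357. These values cannot decide whether the replicate numbers pair the samples, because the libraries also differed along GC content. With the replicate block, 10 of 10 were called higher, at adjusted p up to 0.0134, and calls over all genes were 2647 higher and 1796 lower. Among the other genes named, ALDH18A1 lost its call with the block (adjusted p = 0.0917). The 4 ratios and the SLC7A11 share kept their direction under every setting run for them, and only the ratios were also GC-corrected. Those corrected ratios (log2 differences of -1.13, -0.41, -0.87 and 2.22 in the order given) were added after seeing the data. They used log2(FPKM + 1), unlike the main ratios. The share and the SLC7A11 to SLC7A5 ratio are not separate results, because these genes hold most of the light chain sum. For both, the exact two-sided permutation p was 0.1 with all libraries and 0.2 without any 1 CuB library.

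Calls over all genes, 3046 higher and 2072 lower, moved by over 1.5 times in some settings, and the cause was not tested. They were 1873 and 1318 without the filter, 2265 and 985 at a minimum of 5 FPKM, and 2021 and 3128 with equal fragment totals. They were 4081 and 3664 with the GC correction, 3893 and 3477 with that correction and the replicate block, 1965 and 1297 without CuB replicate 2, and 2115 and 1359 without DMSO replicate 1. The lowest fragment numbers were those of SLC6A9, 222 in DMSO replicate 1, and SLC43A1, 275 in DMSO replicate 3, so counting error weighs most on these.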
